A study of Mus musculus with 3 samples.

Results

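Rab GTPases are the small GTP-binding proteins that give membranes of the cell their identity. The genes of this family were taken as all gene probes of the mouse array whose gene name consists of Rab, a number and at most 1 letter and 1 further digit, which gave 59 genes with 114 probes and 123 spots, out of 26840 genes with a symbol, 56605 gene probes and 59305 gene spots. RNA came from RAW 264.7 cells, a macrophage-like line derived from a mouse tumour, and was hybridised in 1 colour (Cy3) to 3 arrays, 1 for each condition. The control cells received LPS alone at 50 ng/mL, and the other cells had first been incubated for 24 h with either *Lacticaseibacillus rhamnosus* CRL1505 or *Lactiplantibacillus plantarum* CRL1506 at 5e+07 bacteria per mL and then washed and given the same LPS. The duration of the LPS step was 12 h in the design text and 3 h in the sample descriptions. All 3 conditions therefore contained LPS, and arrays of cells without LPS were not analysed here. LPS, a component of the outer membrane of Gram-negative bacteria, is sensed by TLR4.

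A Rab protein cycles between an inactive form bound to GDP and an active form bound to GTP. Exchange factors switch it on, GTPase-activating proteins switch it off, and a GDP dissociation inhibitor carries the inactive protein between membranes, while the active protein recruits effectors such as tethers and motors. In macrophages this family serves the uptake of particles, the maturation of phagosomes into phagolysosomes, the secretion of cytokines and the transport of TLR4 to and from the cell surface. The question addressed here was how the transcripts of the family in LPS-treated macrophages differed after each strain.

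Because there was 1 array for each condition, no p-value could be computed, and neither the variation between cultures nor that between hybridisations was measured. Signals were expressed as the log2 of the processed signal after division by the 75th percentile of that array's gene spots, so that 0 is the level of a moderately bright spot, and each gene was represented by its brightest probe. Ratios between conditions were set against the disagreement of probes within a gene, which had a median SD of 0.23, 0.21 and 0.32 on the log2 scale for CRL1505 + LPS against LPS, CRL1506 + LPS against LPS and CRL1505 + LPS against CRL1506 + LPS, respectively. A gene was counted as higher or lower at a difference of at least 2-fold. Both comparisons with LPS used the same LPS array. The array with CRL1506 shared its slide and scan run with the LPS array, whereas the array with CRL1505 came alone from another slide and run, so that slide and strain cannot be told apart in any comparison with CRL1505. Of 7 macrophage markers (*Cd68*, *Csf1r*, *Adgre1*, *Itgam*, *Lyz2*, *Cd14* and *Tlr4*) all were well above background on each array, with a summed signal of 552.3 to 691.3 times the 75th percentile. They did not move together, as *Adgre1* had 2.61 with LPS, 4.88 with CRL1505 + LPS and 3.62 with CRL1506 + LPS, while *Csf1r* had 7.34, 5.87 and 6.47. Among markers of other cells, none of 2 for B cells was well above background on any array, whereas both for T cells and *Elane* of the 3 for neutrophils were so on all arrays. Of the 3 fibroblast markers 0, 1 and 2 were well above background with LPS, CRL1505 + LPS and CRL1506 + LPS (*Col1a1* -5.86, -6.28 and -2.63), and of the 4 epithelial markers 1, 0 and 1 (*Epcam* -2.20, -5.40 and -3.59), and the part of such differences in the results was not tested.

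The promoter sequences of the genes on which the comparisons turn are given first. RefSeq promoters (GRCm38.p6) were found for 48 of the 59 genes, with 60 promoters. The 250 bases before the transcription start were searched on both strands for 6 short motifs of factors that act in stimulated macrophages or in housekeeping transcription. An NF-kappaB motif (3 G, 2 of any base, 3 T and 2 C) was found in 3 of the 60 Rab promoters against 1.41% of all 32851 promoters, an E-box (CACGTG) in 5 against 6.02%, a cAMP response element (TGACGTCA) in 2 against 1.55%, an interferon-stimulated response element (3 T and a C, 2 of any base, and again 3 T and a C) in 1 against 2.98%, an AP-1 motif (TGANTCA) in 2 against 6.75% and a GC box (GGGCGG) in 40 against 32.7%. The median GC content of these windows was 60.2% for Rab genes and 52.4% for all genes. Of the genes past 2-fold described below, *Rab9* and *Rab10* are shown for the measured differences of at least 2-fold above LPS, and *Rab3d* for that below LPS. *Rab5a* is shown because its level lay on opposite sides of LPS after the 2 strains (log2 ratios of 0.65 and -0.51). Of the 42 genes measured in both comparisons, 23 lay on opposite sides, and *Rab5a*, *Rab18* and *Rab29* kept both signs under every scaling tried. The medians of all genes measured also lay on opposite sides of 0 (0.06 and -0.06). The share of all genes on opposite sides was not counted, so that these counts are not read as a trait of the family. The windows of *Rab8b*, *Rab29* and *Rab33a*, not shown here, hold no match other than to the GC box. Capitals mark matches to any motif other than the GC box.
Rab9: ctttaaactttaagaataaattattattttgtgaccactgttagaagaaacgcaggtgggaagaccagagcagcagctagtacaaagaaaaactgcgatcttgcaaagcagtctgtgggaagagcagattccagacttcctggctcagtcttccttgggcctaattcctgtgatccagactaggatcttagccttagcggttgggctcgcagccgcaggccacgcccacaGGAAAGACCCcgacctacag
Rab10: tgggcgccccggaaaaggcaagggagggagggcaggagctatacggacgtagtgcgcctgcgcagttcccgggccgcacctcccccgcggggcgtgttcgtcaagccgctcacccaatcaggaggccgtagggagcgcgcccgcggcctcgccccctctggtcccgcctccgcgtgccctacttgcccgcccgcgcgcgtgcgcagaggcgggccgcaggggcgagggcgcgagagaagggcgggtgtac
Rab5a: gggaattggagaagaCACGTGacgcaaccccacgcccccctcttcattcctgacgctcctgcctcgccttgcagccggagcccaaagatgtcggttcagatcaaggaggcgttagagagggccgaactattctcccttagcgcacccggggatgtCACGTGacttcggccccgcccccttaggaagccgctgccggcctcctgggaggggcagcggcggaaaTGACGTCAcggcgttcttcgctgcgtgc
Rab3d: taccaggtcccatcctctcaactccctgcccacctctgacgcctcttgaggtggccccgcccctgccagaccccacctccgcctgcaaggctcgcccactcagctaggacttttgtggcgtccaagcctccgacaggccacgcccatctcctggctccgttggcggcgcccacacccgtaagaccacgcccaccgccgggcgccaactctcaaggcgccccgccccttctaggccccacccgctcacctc
The windows lie at chrX:166479868-166480117 (minus strand) for *Rab9*, chr12:3309970-3310219 (minus strand) for *Rab10*, chr17:53478984-53479233 (plus strand) for *Rab5a* and chr9:21918184-21918433 (minus strand) for *Rab3d*, and each ends with the base before the transcription start. The *Rab9* window holds 1 NF-kappaB match (GGAAAGACCC, on the opposite strand) from 20 to 11 bases before the start. The *Rab5a* window holds 2 E-boxes, at 235 to 230 and at 95 to 90 bases before the start, and a cAMP response element at 28 to 21 bases before it, none of which overlap. The *Rab10* and *Rab3d* windows hold none of these letters, but each holds 2 GC boxes. Among Rab genes not shown, the NF-kappaB motif was also found for *Rab15* and *Rab28*. The E-box was found for *Rab20*, *Rab21*, *Rab23* and *Rab27a*, and the cAMP response element for *Rab25*. A link between these motifs and the ratios was not tested.

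Of the 59 Rab genes, 42 were well above background on all 3 arrays, 5 on 1 or 2 of them and 12 on none. The 12 genes without a signal well above background were *Rab3c*, *Rab6b*, *Rab9b*, *Rab17*, *Rab25*, *Rab26*, *Rab27b*, *Rab36*, *Rab37*, *Rab38*, *Rab39b* and *Rab40b*, and none of their other probes reached that level either. Several of these are known mainly from other tissues, such as *Rab3c* from neurons, *Rab25* from epithelia and *Rab38* from pigment cells. The 5 genes seen on part of the arrays were *Rab33a* (both arrays with bacteria), *Rab27a* (LPS and CRL1506 + LPS), and *Rab3b*, *Rab42* and *Rab44* (LPS only). Detection differed between the arrays. With LPS, CRL1505 + LPS and CRL1506 + LPS, 54.5%, 48.5% and 55.3% of all gene spots were well above background. Of the 123 Rab spots, 93, 88 and 90 were so. Both counts were lowest with CRL1505, and a loss specific to these genes was not tested. No Rab spot was saturated. Brightness depends on the probe as well as on the transcript, and levels of different genes were therefore not ranked.

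**Figure D1:**
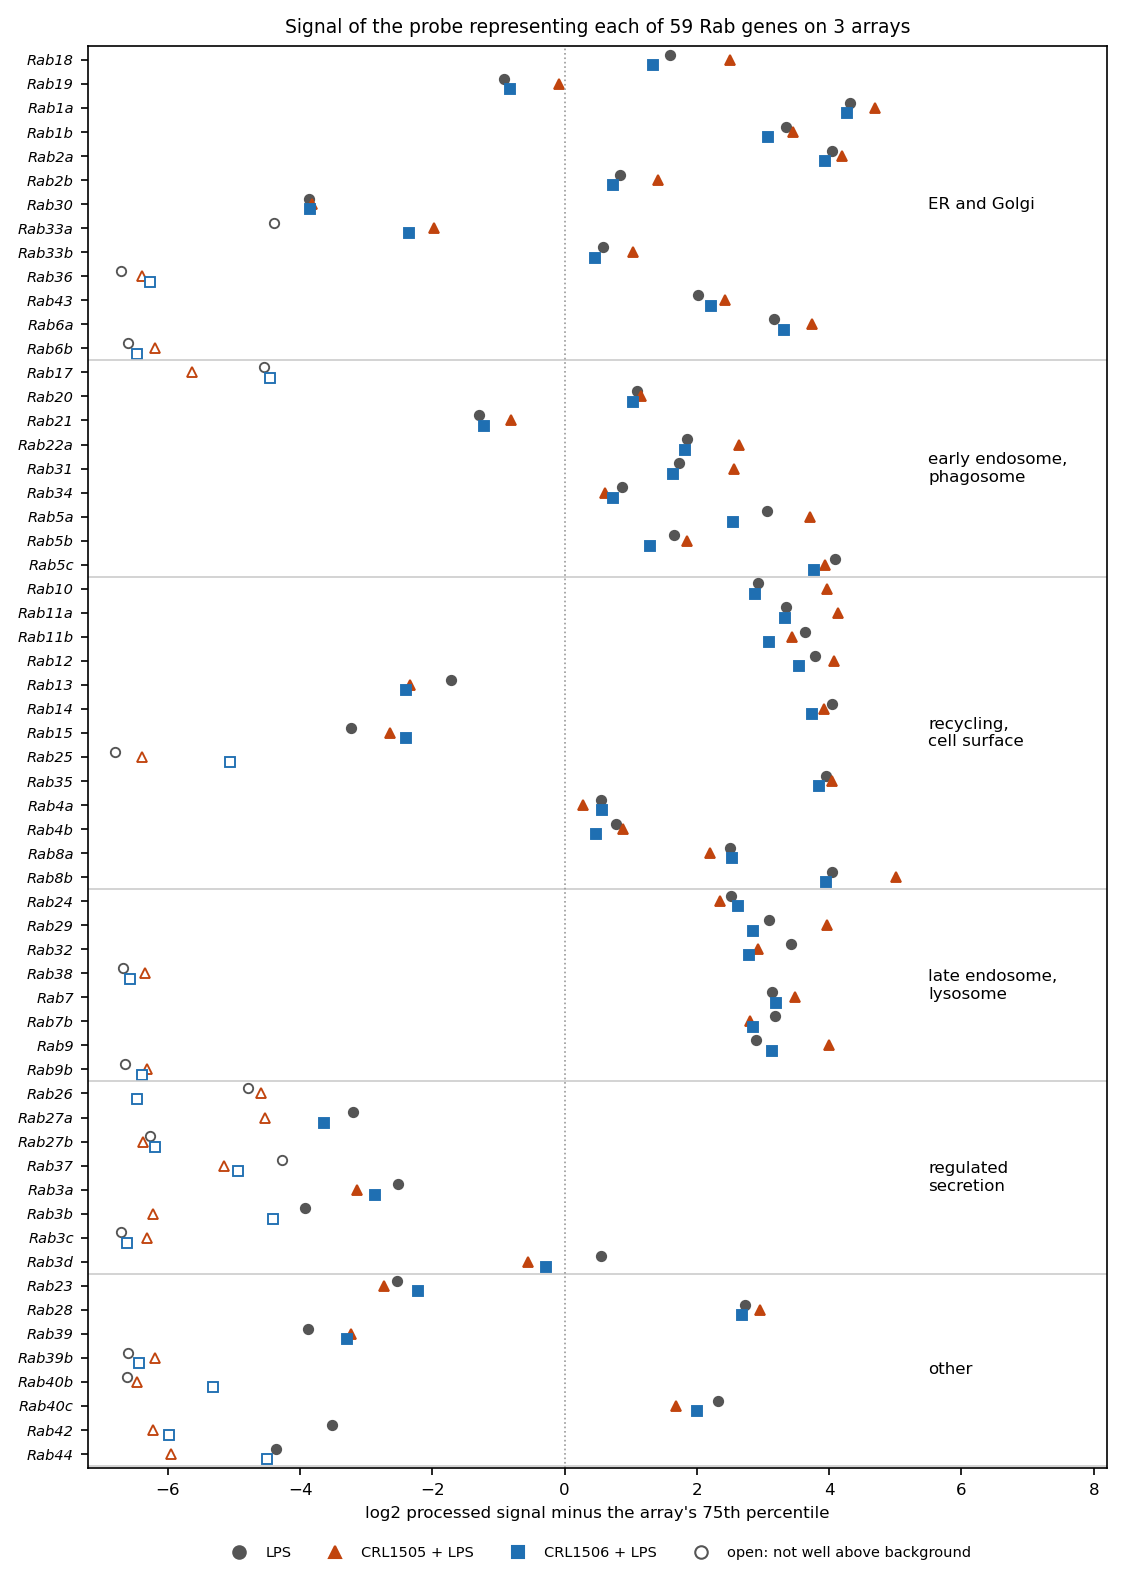
Signal of the probe representing each of the 59 Rab genes, as log2 of the processed signal minus the 75th percentile of the array, for LPS (grey circles), CRL1505 + LPS (red triangles) and CRL1506 + LPS (blue squares). Genes are grouped by role, open symbols mark signals not well above background, there is 1 array for each condition, and *Rab33a* stands out as open with LPS (-4.40) and filled with either strain (-1.97 and -2.35).

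In CRL1505 + LPS against LPS, 3 of the 46 Rab genes that could be compared were at least 2-fold higher (6.52%, beside 9.92% of all genes compared) and 1 was at least 2-fold lower (2.17%, beside 8.41%). These shares were below those of all genes. The genes were *Rab9*, *Rab10* and *Rab33a* in the first case and *Rab3d* in the second. In both comparisons with LPS the call of *Rab33a* rested on a bound, whose direction was fixed by its dim signal with LPS. In CRL1506 + LPS against LPS, 1 of 47 was at least 2-fold higher (2.13%, beside 5.67%), namely *Rab33a*, and none was at least 2-fold lower (beside 3.52%). In CRL1505 + LPS against CRL1506 + LPS, 5 of 44 were at least 2-fold higher (11.4%, beside 9.01%), namely *Rab5a*, *Rab8b*, *Rab10*, *Rab18* and *Rab29*, and none was lower (beside 7.46%).

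Most members thus lay within 2-fold. Among the 42 genes measured on both arrays of CRL1505 + LPS against LPS, 27 lay above the median of all genes. This count ran from 24 to 27 over 7 other scalings. The median log2 ratio of the 42 genes was 0.21, while it was 0.06 for all 13242 genes measured. The sign of this median depended on how the arrays were scaled: over 7 other scalings it ran from -0.30 with spike-in probes to 0.50 with the median, while that of all genes ran from -0.45 to 0.35. The difference between the median of the family and that of all genes ran from 0.11 to 0.15 under these scalings. For CRL1506 + LPS against LPS the median of 43 genes was -0.10 beside -0.06 for all genes. For CRL1505 + LPS against CRL1506 + LPS it was 0.29 beside 0.09, with 30 of 43 genes above the median of all genes, and the difference ran from 0.14 to 0.20 under the other scalings.

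**Figure D2:**
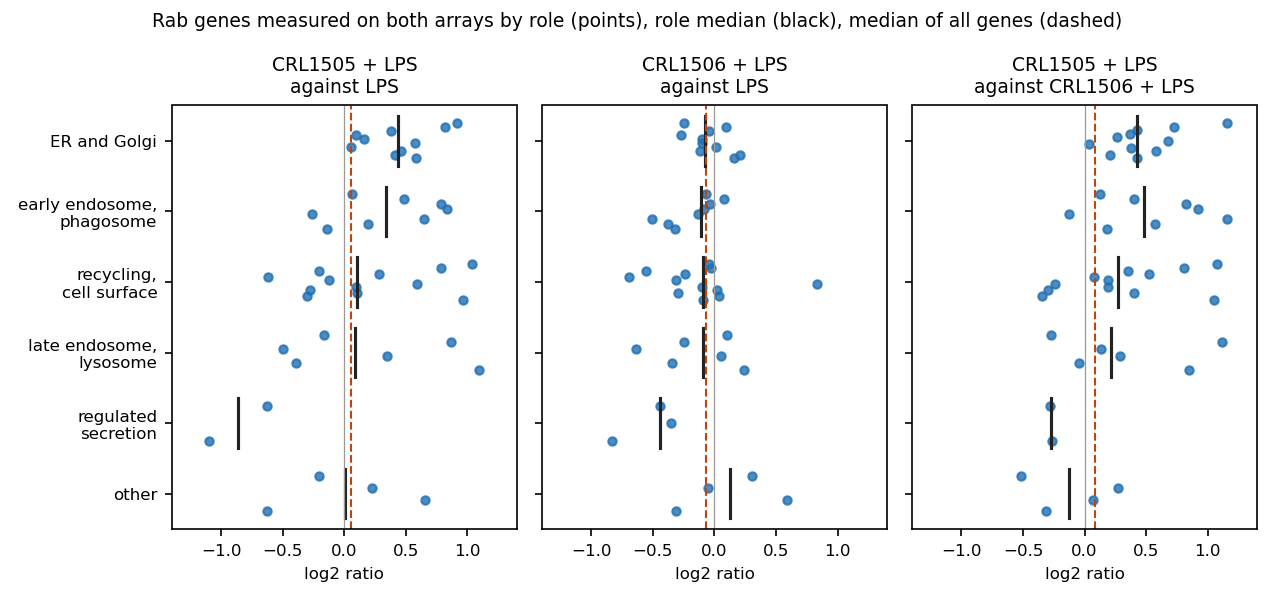
Log2 ratio of each Rab gene measured on both arrays (points), by role, in the 3 comparisons, with the median of the role (black line) and of all genes (dashed line). The ER and Golgi genes lie above the median of all genes in CRL1505 + LPS against LPS with 1 exception, while the regulated secretion genes lie below it in both comparisons with LPS, and in CRL1506 + LPS against LPS most points stay within 0.5 of 0.

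The Rab genes of the ER and Golgi were the group furthest above the rest after CRL1505. This group holds 13 genes, of which 10 were measured on both arrays of each comparison with LPS. By their brightest probes, all 10 measured genes had a ratio above 0 in CRL1505 + LPS against LPS, with a median of 0.44. With spike-in scaling 4 of them did. The second probes of *Rab1b* and *Rab43* gave -0.24 each, in place of 0.09 and 0.42. Other measured probes of *Rab1a*, *Rab2a*, *Rab2b* and *Rab6a* stayed above 0. The median of the measured genes exceeded that of all genes by 0.33 to 0.42 over the 7 other scalings, and 8 or 9 of the 10 genes lay above the latter. In CRL1506 + LPS against LPS the median of these genes was -0.07, with 4 above and 6 below 0. *Rab1a*, which drives transport from the ER to the Golgi, had signals of 4.32 with LPS, 4.70 with CRL1505 + LPS and 4.27 with CRL1506 + LPS. *Rab6a*, which serves traffic within and from the Golgi, had 3.17, 3.75 and 3.32. The array with CRL1505 was the highest for both genes, with log2 ratios to LPS of 0.38 and 0.58, and *Rab2a*, which acts between the Golgi and the ER, had 0.16.

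*Rab18*, which acts on lipid droplets and the ER, showed the largest contrast between the strains in this group. Its signal was 1.59 with LPS, 2.50 with CRL1505 + LPS and 1.34 with CRL1506 + LPS. The array with CRL1505 was thus high, and that with CRL1506 lay 0.25 below LPS, a sign that held under the 7 other scalings. The single probe (mm9, chr18:6789732-6789791) was 1.88-fold above LPS after CRL1505 and 2.23-fold above CRL1506 + LPS, a log2 ratio of 1.16 that ran from 0.78 to 1.66 over the other scalings and remained at least 2-fold in 4 of 7.

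*Rab33a* had the largest ratios to LPS of the members compared, but both were bounds. It could be compared with LPS only because its signals with bacteria were well above background, which fixed the sign of both ratios. The gene encodes a Golgi protein of a subgroup that also binds the autophagy machinery. Its signal with LPS was -4.40, too dim to count as signal, whereas it was -1.97 with CRL1505 + LPS and -2.35 with CRL1506 + LPS, both well above background. Both arrays with bacteria were thus high. The gene was at least 5.39-fold higher after CRL1505 and at least 4.15-fold higher after CRL1506, bounds that were past 2-fold in 7 and 6 of the 7 other scalings, respectively, and that ran down to log2 values of 1.25 and 0.93. The strains themselves differed by a log2 ratio of 0.38, which is close to the SD between probes. The gene has a single probe (mm9, chrX:45883332-45883391), so that no second probe could be compared. Its relative *Rab33b*, which is well above background on all arrays, had 0.58, 1.04 and 0.46.

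Among the 9 Rab genes of early endosomes and phagosomes, 8 were measured, and 6 had a ratio above 0 in CRL1505 + LPS against LPS (median 0.34) while 7 had a ratio below 0 in CRL1506 + LPS against LPS (median -0.11). Over the other scalings the number above 0 ran from 3 to 8 in the first comparison and from 0 to 4 in the second, where the median lay only 0.04 below that of all genes. None of them passed 2-fold against LPS. *Rab5a*, which controls the fusion of early endosomes and of young phagosomes, had signals of 3.05 with LPS, 3.70 with CRL1505 + LPS and 2.54 with CRL1506 + LPS. LPS lay between the arrays with bacteria, with log2 ratios of 0.65 after CRL1505 and -0.51 after CRL1506, and both signs held under the 7 other scalings (0.15 to 0.95 and -0.71 to -0.40). The array with CRL1505 was 2.23-fold above that with CRL1506, and the difference stayed at least 2-fold in 2 of 7 scalings. Its single probe lies at chr17:53646662-53646721 (mm9). *Rab31*, which acts between the trans-Golgi network and endosomes, had 1.72, 2.56 and 1.64, but a second probe gave log2 ratios of 0.70 after both strains. *Rab20*, which acts in phagosome maturation, had 1.10, 1.16 and 1.03 and so differed by no more than 0.13 between any arrays. *Rab5c*, a close relative of *Rab5a*, had 4.08, 3.94 and 3.76, with LPS the highest.

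The 13 Rab genes of recycling and of delivery to the cell surface contain several that are linked to TLR4. *Rab10*, which delivers TLR4 to the plasma membrane, had signals of 2.92 with LPS, 3.96 with CRL1505 + LPS and 2.88 with CRL1506 + LPS. The array with CRL1505 was high and the other arrays differed by 0.04. This gave a 2.05-fold higher level after CRL1505 than with LPS alone, a log2 ratio of 1.04 that ran from 0.53 to 1.33 and remained at least 2-fold in 1 of 7 other scalings. The single probe lies at chr12:3247758-3247817 (mm9). *Rab11a*, which carries TLR4 from the recycling compartment to phagosomes, had 3.35, 4.13 and 3.32, a pattern of the same shape with a log2 ratio of 0.78. *Rab8b*, which directs vesicles to the cell surface, had 4.04, 5.01 and 3.95, and was 1.95-fold above LPS after CRL1505 and 2.07-fold above CRL1506 + LPS. The log2 ratio between the strains ran from 0.67 to 1.55 and remained at least 2-fold in 1 of 7 other scalings. The second probe of *Rab8b* gave log2 ratios of 0.46 and 0.32 in place of 0.96 and 1.05. *Rab14*, found on phagosomes and the trans-Golgi network, had 4.05, 3.92 and 3.74, and *Rab35*, which drives fast recycling, had 3.95, 4.04 and 3.85.

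*Rab13*, known from tight junctions, was lower on both arrays with bacteria (-2.33 with CRL1505 and -2.41 with CRL1506) than on the LPS array (-1.71). Its second probe did not show this, with log2 ratios of 0.24 and -0.09. *Rab15*, which regulates endocytic recycling, had -3.23, -2.64 and -2.40, but its spots were uneven or lay among uneven ones on all arrays. Over the whole group the median log2 ratio was 0.10 in CRL1505 + LPS against LPS and -0.09 in CRL1506 + LPS against LPS, beside 0.06 and -0.06 for all genes measured.

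Of the 8 Rab genes of late endosomes, lysosomes and lysosome-related organelles, 6 were measured on all arrays. *Rab9*, which returns mannose 6-phosphate receptors from late endosomes to the Golgi, had signals of 2.90 with LPS, 3.99 with CRL1505 + LPS and 3.14 with CRL1506 + LPS. The array with CRL1505 was 2.13-fold above LPS, and the 2 probes gave log2 ratios of 1.09 and 0.92. The value ran from 0.59 to 1.39 and remained at least 2-fold in 3 of 7 other scalings. The probe lies at chrX:162895305-162895364 (mm9). *Rab29*, which recruits the kinase LRRK2 to membranes, had 3.09, 3.96 and 2.85, and was 2.16-fold higher after CRL1505 than after CRL1506, with log2 ratios of 1.11 and 1.01 from its 2 probes. The first value ran from 0.74 to 1.61 and remained at least 2-fold in 2 of 7 other scalings.

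*Rab7*, the main regulator of fusion with lysosomes, had 3.13, 3.48 and 3.19, a log2 ratio of 0.34 after CRL1505 that its second probe gave as -0.16. *Rab7b*, which promotes the degradation of TLR4 in lysosomes, had 3.19 with LPS and was lower on both arrays with bacteria, at 2.80 after CRL1505 and 2.84 after CRL1506. *Rab32*, which acts in the defence of macrophages against *Salmonella*, showed the same order with 3.43, 2.93 and 2.79, log2 ratios of -0.50 and -0.63 that kept their sign under the 7 other scalings. These genes remained within 2-fold of LPS. *Rab38*, the closest relative of *Rab32*, stayed near background on all arrays.

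Few of the 8 Rab genes of regulated secretion were measured on both arrays of a comparison. The 2 measured for CRL1505 (*Rab3a* and *Rab3d*) and the 3 measured for CRL1506 (these and *Rab27a*) had ratios to LPS below 0, also under the 7 other scalings. *Rab3b* could be compared only because its signal with LPS was well above background, which fixed its sign, as it did for *Rab27a* after CRL1505. *Rab3d*, which sits on secretory granules, had signals of 0.55 with LPS, -0.55 with CRL1505 + LPS and -0.28 with CRL1506 + LPS. The LPS array was the highest, and the gene was 2.14-fold lower after CRL1505 and 1.78-fold lower after CRL1506, with the first value remaining at least 2-fold in 6 of 7 other scalings. The probe lies at chr9:21713734-21713793 (mm9). The second probe of *Rab3d* gave log2 ratios of -2.96 and -2.46, but its spot on the LPS array was uneven. *Rab3a*, which controls the docking of secretory vesicles, has a probe spotted 10 times. Its signal was -2.51 ± 0.19 with LPS (SD, n = 10 spots), -3.15 ± 0.21 with CRL1505 + LPS (n = 9 spots, 1 being left out as an outlier) and -2.87 ± 0.14 with CRL1506 + LPS (n = 10 spots). These spots share 1 hybridisation, and the SD describes that array only. *Rab27a*, which drives the release of lysosome-related organelles and exosomes, had -3.20 with LPS, -4.53 with CRL1505 + LPS and -3.64 with CRL1506 + LPS, the value with CRL1505 being too dim to count as signal. It was thus at least 1.90-fold lower after CRL1505 and 1.36-fold lower after CRL1506.

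Of the remaining 8 genes, *Rab40c*, which is part of a ubiquitin ligase, had 2.31 with LPS, the highest of its signals, and log2 ratios of -0.63 and -0.31 after CRL1505 and CRL1506. *Rab39*, found on phagosomes and the Golgi, had -3.88, -3.23 and -3.30, with LPS the lowest. *Rab23*, known from Hedgehog signalling, had -2.53, -2.74 and -2.22, and its 2 probes disagreed in sign after CRL1506 (0.31 and -0.52). *Rab42* was well above background with LPS only (-3.51), but that spot was uneven or lay among uneven ones. *Rab28* showed log2 ratios of 0.22 and -0.05.

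**Figure D3:**
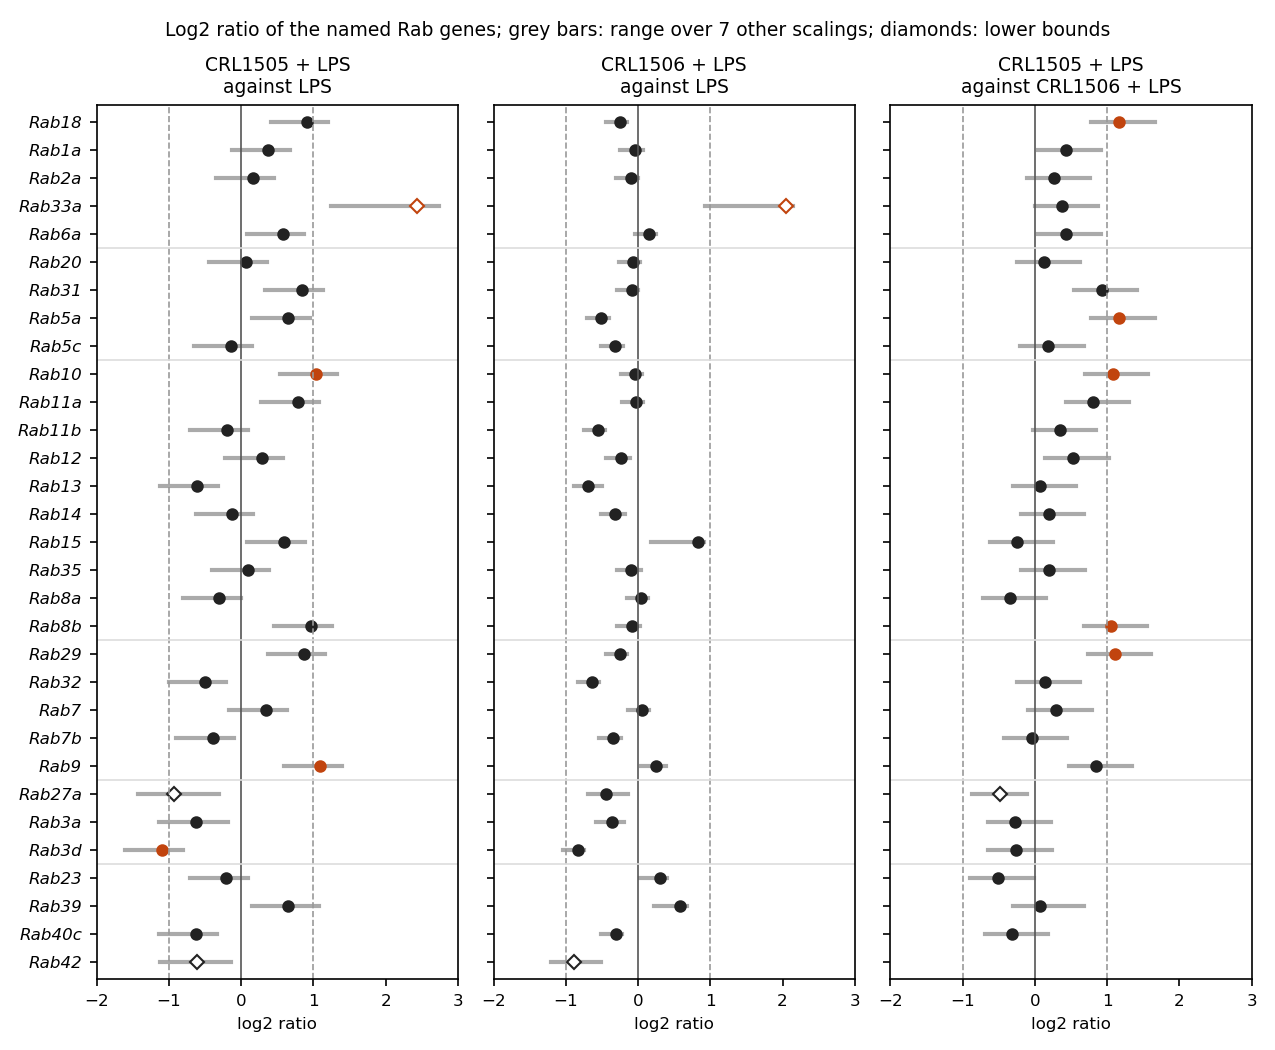
Log2 ratio of the named Rab genes in CRL1505 + LPS against LPS, CRL1506 + LPS against LPS and CRL1505 + LPS against CRL1506 + LPS, with values past 2-fold in red and bounds as open diamonds. Grey bars give the range over 7 other scalings, dashed lines mark 2-fold, and *Rab33a* is the only gene past 2-fold against LPS after both strains (2.43 and 2.05, both bounds).

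Members that share a number in their name were set side by side in pairs. The pairs were formed by name only, no protein sequences were compared, and those among *Rab5a*, *Rab5b* and *Rab5c* share genes. A difference between ratios of 2 genes on the same arrays does not depend on a shift of the whole array. Over the 10 pairs with both genes measured, the ratios against LPS differed by a median of 0.46 log2 units for CRL1505 and 0.21 for CRL1506. The SD of the log2 ratio over all genes measured was 0.75 and 0.54, respectively. It describes the spread of single genes and is not a like measure to a median difference between 2 genes. Of the 10 pairs, 1 lay over 1 apart for CRL1505 and 0 for CRL1506. Whether such pairs differ from pairs of any 2 genes was not tested. *Rab8b* exceeded *Rab8a*, which acts in TLR signalling at membrane ruffles, in the CRL1505 comparison: the signals of *Rab8a* were 2.50, 2.19 and 2.54, its log2 ratio was -0.30 against 0.96 for *Rab8b*, and the gap of 1.26 ran from 1.08 to 1.26 over the other scalings. The second probes of these genes gave a smaller contrast, with -0.08 for *Rab8a* and 0.46 for *Rab8b*. In the CRL1506 comparison the brightest probes differed by 0.13. *Rab11a* exceeded *Rab11b* by 0.99 in the CRL1505 comparison and by 0.53 in the CRL1506 comparison, and the 3 probes of *Rab11b* gave -0.30 to -0.17 and -0.69 to -0.55, respectively. *Rab5a* exceeded *Rab5c* by 0.79 after CRL1505 and lay 0.19 below it after CRL1506, while *Rab5b* had log2 ratios of 0.19 and -0.37, which a second probe gave as -0.66 and -0.17. *Rab7* exceeded *Rab7b* by 0.73 and 0.40, but the second probe of *Rab7* gave -0.16 after CRL1505 in place of 0.34.

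**Figure D4:**
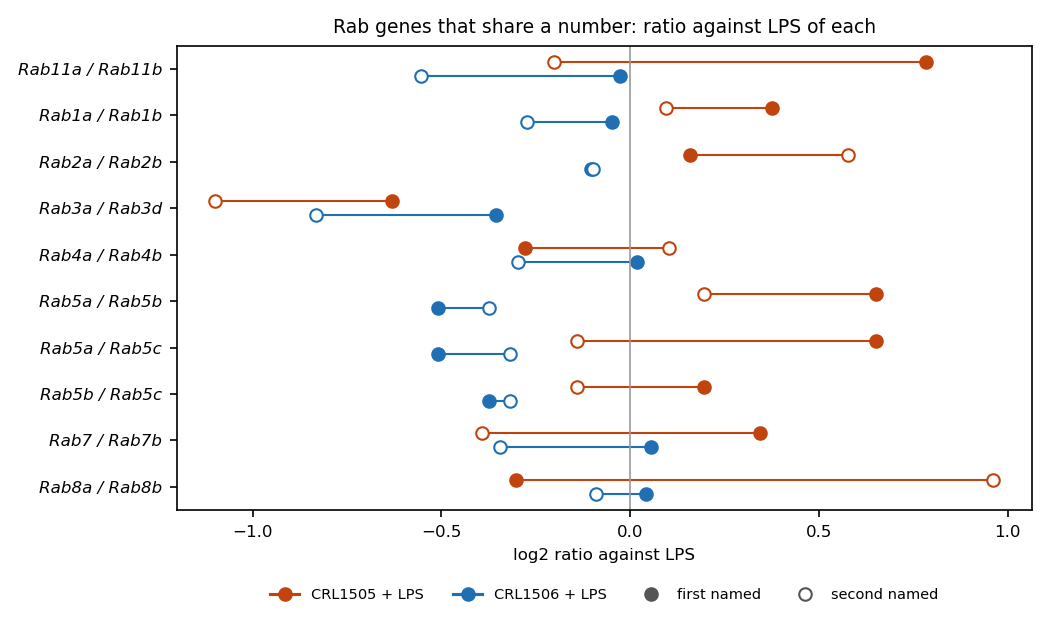
Log2 ratio against LPS of the Rab genes that share a number, joined by a line for CRL1505 + LPS (red) and CRL1506 + LPS (blue), with the first named gene filled and the second open. The widest line is that of *Rab8a* and *Rab8b* after CRL1505 (-0.30 and 0.96), and after CRL1506 the same genes lie 0.13 apart.

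The probes of a gene did not always tell the same story. Of the 33 dimmer probes of 24 Rab genes that were measured and even in CRL1506 + LPS against LPS, 25 gave a log2 ratio within 0.5 of that of the brightest probe, while 5 probes of 4 genes were at least 1 log2 unit higher (15.2%, beside 10.4% of such probes of all genes). None was at least 1 log2 unit lower (beside 1.69%), and in CRL1505 + LPS against LPS none was higher or lower by that much (beside 2.71% and 4.08%). In CRL1505 + LPS against CRL1506 + LPS, 6 of 35 were lower by that much (17.1%, beside 16.8%) and none was higher (beside 3.19%). The Rab shares were near those of all genes. The 4 genes were *Rab1a*, *Rab2b*, *Rab12* and *Rab14*. In *Rab1a* the brightest probe gave -0.05 and a probe 5882 bases upstream gave 1.91, with signals of -2.12 on the LPS array and -1.15 and -0.21 after CRL1505 and CRL1506. In *Rab12*, which acts in the degradation of the transferrin receptor, the brightest probe gave -0.24, and probes 3016 and 19877 bases upstream gave 1.61 and 1.48. A further *Rab12* probe, whose bases span 13314 bases of the genome and therefore more than 1 exon, gave 0.08. In *Rab14*, 3 of the 4 dimmer probes gave -0.16 to -0.12, and the probe 15978 bases upstream gave 1.24. Each of the 5 probes lay at least 3016 bases upstream of the brightest one and was dimmer than it by a log2 difference of at least 1.46 on every array. These traits did not set them apart. Probes of *Rab14*, *Rab1b* and *Rab43* lay 19669, 5501 and 5762 bases upstream and were also dimmer by more than 1.46 on every array. In CRL1506 + LPS against LPS their ratios were only 0.19, 0.08 and 0.19 above that of the brightest probe.

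**Figure D5:**
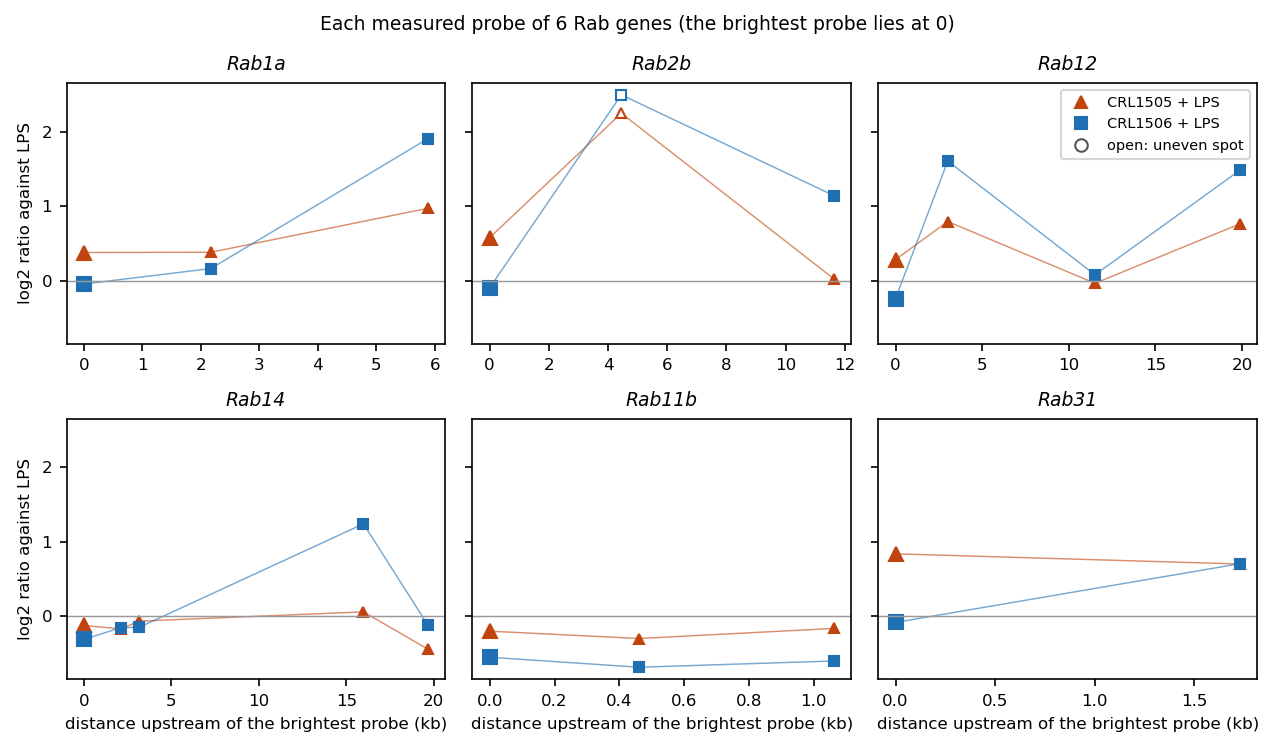
Log2 ratio against LPS of each measured probe of *Rab1a*, *Rab2b*, *Rab12*, *Rab14*, *Rab11b* and *Rab31* by its distance in kb upstream of the brightest probe of the gene, which lies at 0, for CRL1505 + LPS (red triangles) and CRL1506 + LPS (blue squares). Open symbols mark uneven spots, *Rab11b* has 3 probes that agree within 0.14, and upstream probes of *Rab1a* and *Rab12* reach 1.91 and 1.61 after CRL1506.

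The genes that operate the Rab cycle were described from 4 lists with 124 genes on the array. Of the 109 compared in CRL1505 + LPS against LPS, 7 were at least 2-fold higher and 8 lower (6.42% and 7.34%), with a median log2 ratio of 0.07, and of the 113 compared in CRL1506 + LPS against LPS, 4 were higher and 1 lower (3.54% and 0.885%), with a median of -0.11. These shares were below those of all genes given above. None of the 8 genes for GDP dissociation inhibitors, escort proteins and prenylation passed 2-fold. *Gdi2*, a GDP dissociation inhibitor, had signals of 5.46, 5.40 and 5.34.

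Of the exchange factors, 31 could be compared for CRL1505, of which 1 was higher (3.23%, beside 9.92% of all genes) and 2 were lower (6.45%, beside 8.41%), and none of 32 passed 2-fold for CRL1506 (beside 5.67% higher and 3.52% lower). *Rin2*, which activates Rab5 proteins, had 1.96 with LPS and 2.38 with CRL1506 + LPS. It was 4.12-fold above LPS after CRL1505 with a range of 1.54 to 2.34 in log2 ratio over the other scalings. *Rab3il1*, an exchange factor for Rab8 proteins, had 2.57, 0.22 and 1.88 and was 5.09-fold lower after CRL1505, although another of its probes gave 0.47. *Dennd2c* was 2.86-fold lower.

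Among the GTPase-activating proteins, 4 of 35 were higher (11.4%, beside 9.92% of all genes) and 6 lower (17.1%, beside 8.41%) after CRL1505, and 2 of 35 were higher (5.71%, beside 5.67%) and none lower (beside 3.52%) after CRL1506. For CRL1505 the share of higher genes was near that of all genes, and the share of lower genes lay above it. Both rested in part on bounds and on uneven spots or spots among them. Among the higher genes these were *Sgsm1*, *Tbc1d4* and *Tbc1d13*, and among the lower ones *Tbc1d8b*, *Tbc1d30* and *Usp6nl*. No excess over all genes was therefore read from these counts. *Tbc1d9* was higher after both strains, with -1.31 on the LPS array and 0.02 and -0.02 after CRL1505 and CRL1506, and its probes gave 0.83 to 1.33 and 1.29 to 1.47. *Tbc1d10a*, which acts on Rab27 and Rab35, had 1.30, -0.14 and 0.38, and its 3 probes gave -1.66 to -1.35 after CRL1505 and -0.92 to -0.88 after CRL1506. *Tbc1d2*, which acts on Rab7, was 3.85-fold lower after CRL1505 and 1.10-fold lower after CRL1506. *Sgsm1* was well above background with CRL1505 + LPS only and was at least 19.4-fold higher there, while *Sgsm2* was 2.08-fold lower. *Rabgap1* was 3.99-fold higher after CRL1506, but its second probe gave a log2 ratio of 0.48. *Tbc1d4*, which acts on Rab10, gave 2.14 after CRL1505 from an uneven spot and -1.71 from another probe. *Tbc1d13* (1.12), *Tbc1d8b* (-1.24) and *Usp6nl* (at most -1.37) also rested on uneven spots or spots among them, and *Tbc1d30* was lower by a bound of -1.17.

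Among the effectors, 2 of 35 were higher (5.71%, beside 9.92% of all genes) after CRL1505 and none was lower (beside 8.41%), while 2 of 38 were higher (5.26%, beside 5.67%) and 1 lower (2.63%, beside 3.52%) after CRL1506. *Inpp5b*, a phosphatase recruited by Rab5, had 3.74, 5.26 and 3.97, and its probes gave 1.05 and 1.52 after CRL1505. *Unc13d*, the partner of Rab27 in granule release, had -0.32, 0.86 and 0.20, and its probes gave 0.16 and 1.18. *Appl2*, an early endosome protein that binds Rab5, was lower after both strains, with -0.04 on the LPS array and -0.88 and -1.45 after CRL1505 and CRL1506, and was 2.67-fold lower after CRL1506. *Fyco1*, which links Rab7 to kinesin, had -1.96, -1.41 and -0.86 and was 2.14-fold higher after CRL1506, with probes from 0.22 to 1.10. *Myrip*, a Rab27 effector, gave a bound of 1.60 after CRL1506 from an uneven spot.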

How the data were processed

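RNA of RAW macrophages was measured on 3 Agilent SurePrint mouse arrays with 60-base probes, 1 for each of LPS, CRL1505 + LPS and CRL1506 + LPS. The authors deposited the output of Feature Extraction (version 12.0.3.1 in the files), whose processed signal is an intensity with background subtracted and trends removed, and a table of log2 values. The deposited log2 values had a median of 6.77 on each array and differed by at most 0.135 from quantile-normalized values after normexp (offset 50) of the median pixel signal, so that their scale and centring were known. Here log2 processed signals had the 75th percentile over gene spots subtracted (signals of 743.1, 517.0 and 697.9). Outlier spots were left out, repeated spots were averaged, and the brightest probe represented a gene, unless 50% or more of its spots on an array had been dropped and there was another. Genes with neither side well above background were not compared. With 1 dim side, that side was set to the lowest signal well above background on its array, or its own if higher, and the ratio is a bound. With single arrays the t-test of the methods could not be run, and a 2-fold threshold was used alone. Alternatives were 7 scalings, other filters, probe rules and thresholds.

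Rab genes were named if past 2-fold, among the 5 largest or lowest ratios to LPS, among the 10 brightest, or on a fixed list of endosomal and phagosomal members (32 in all), and genes of the Rab cycle if past 2-fold against LPS. *Gdi2*, relatives of named genes and genes with discordant probes were added after values were seen. Members and lists were chosen with earlier results of these data known. The number of arrays limits the precision. Log2 ratios of repeated spots had a median SD of 0.048, 0.043 and 0.047, which describes single hybridisations. A spot was uneven where its mean exceeded its median pixel signal by over 0.2 (log2), or where at least 5 of its 20 nearest spots did. Python 3.11.15, pandas 2.3.3, NumPy 2.4.6, R 4.3.3 and limma 3.58.1 were used. Probe positions are those of the files (mm9), and promoters are from RefSeq (GRCm38.p6).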

Additional observations from a re-analysis of the deposited data

Results flagged for a closer look

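*Rab5a* lay on opposite sides of LPS after the 2 strains, with a log2 ratio of 0.65 for CRL1505 + LPS against LPS and of -0.51 for CRL1506 + LPS against LPS. It was singled out because the only array of each strain moved the opposite way by more than 0.32, the largest of the 3 median SDs between probes of a gene. Of the 42 Rab genes measured in both comparisons, 23 lay on opposite sides of LPS, and 3 kept both signs under the 7 other scalings. These were *Rab5a*, *Rab18* (0.91 and -0.25) and *Rab29* (0.87 and -0.24). The medians of all genes measured lay on opposite sides of 0 as well (0.06 and -0.06), and the share of all genes on opposite sides was not counted. The difference between the ratios of *Rab5a* was not tested, since there was 1 array for each condition. Both ratios share the LPS array and *Rab5a* has a single probe.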

How the results depend on the processing

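No paired analysis was possible because each condition had 1 array. Over 12 other settings, 954 of 1089 log2 ratios of named Rab genes stayed within 0.32 of the main value and 135 moved further, 61 of them with spike-in scaling and 29 with the median shift, and no ratio past 2-fold changed sign. Ratios without a value under a setting were left out. Counts of Rab genes at least 2-fold higher, lower in brackets where they changed, for CRL1505 + LPS against LPS (3 and 1) were 10 (0) with the median shift, 1 with quantile normalization, 1 (2) with the 75th percentile of probes well above background on all arrays, 1 (7) with spike-in scaling, 1 with the deposited table, 6 lower without a filter on dim probes, 13 (6) at 1.5-fold and 1 (0) at 4-fold. For CRL1506 + LPS against LPS (1 and 0) they were 0 with the deposited table, 3 (2) without that filter, 0 with probes well above background on all arrays, 2 (1) with the mean over probes and 3 (4) at 1.5-fold, and lower genes numbered 2 with the median shift and 1 each with quantile, cyclic loess and spike-in scaling. For CRL1505 + LPS against CRL1506 + LPS (5 and 0) higher genes numbered 14 with the median shift, 1 each with quantile and cyclic loess, 0 each with the detected percentile, spike-in scaling, the deposited table and 4-fold, and 11 at 1.5-fold, and 5 were lower without the filter. The median log2 ratio over all Rab genes compared turned from 0.18 to -0.31 with spike-in scaling for CRL1505 + LPS against LPS, and for CRL1505 + LPS against CRL1506 + LPS from 0.28 to -0.10, while it was 0.78 with the median shift. Cyclic loess, normexp, outlier spots kept and uneven spots dropped moved no other count beyond 1.5 times. The causes were not tested.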
